A study of Populus trichocarpa with 9 samples.

Results

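PtrMYB092, a MYB transcription factor (TF) of the black cottonwood Populus trichocarpa, was transiently overexpressed in SDX protoplasts and compared with GFP over all genes. SDX is stem-differentiating xylem, the wood-forming tissue of the stem, and protoplasts are its cells after their walls have been digested away. The comparison used 6 of the 9 libraries of the series, 3 of PtrMYB092 and 3 of GFP. The other 3 libraries carried the TF PtrHSFB3-1 and were in neither group compared. They entered the filter of genes, the scaling and the estimates of the spread and of the replicate effect. The protoplasts came from 6-month-old greenhouse trees (clonal plants of genotype Nisqually-1), took up plasmid DNA with polyethylene glycol and were harvested after 12 h. The PtrMYB092 plasmid held the TF under the viral 35S promoter next to a second 35S cassette for sGFP. The GFP control plasmid held only the sGFP cassette, so that both plasmids carried 35S-driven sGFP. What share of the protoplasts took up plasmid is not given in the sources used here. A library is a pool of protoplasts, of which the labels give 5000000 to 8000000 for each sample while the methods of the study give a number 10 times lower.

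MYB TFs bind DNA through repeated helix-turn-helix units, and several of them act in a layered network that switches on secondary wall formation in xylem. One of their targets is the monolignol pathway, which turns phenylalanine into the alcohols that are polymerised into lignin in the cell wall. The pathway removes ammonia from phenylalanine, hydroxylates and methylates the aromatic ring, activates the acid as a CoA thioester and then reduces it to an alcohol. Many of its steps are encoded by several paralogs in P. trichocarpa, which is why single genes are given below.

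The PtrMYB092 transcript is identified by the primers used to clone its coding sequence (Potri.001G118800, chromosome 1), printed 5′ to 3′ to show which stretch was overexpressed. Capitals mark the tail for directional cloning in the forward primer and the complement of the TAG stop codon in the reverse primer, so the native stop was kept.
PtrMYB092 forward: CACCctctttctctccctccataca
PtrMYB092 reverse: CTAgtgcttgtgttccatctc

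The deposited value of PtrMYB092 was 4, 5 and 4 in GFP replicates 1 to 3. In PtrMYB092 replicates 1 to 3 it was 6922, 11036 and 17727, which made up 1.57%, 2.58% and 3.96% of the column totals. The groups lay far apart, and PtrMYB092 replicate 3 was highest and replicate 1 lowest in its group. Each gene has a single value, which does not separate plasmid from native transcript. A description field in the labels of PtrMYB092 replicates 2 and 3 names PtrHSFB3-1, against their titles. PtrHSFB3-1 itself stood at 119, 105 and 165 in the 3 PtrMYB092 libraries, far from an overexpressed level, and the titles were followed.

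**Figure D1:**
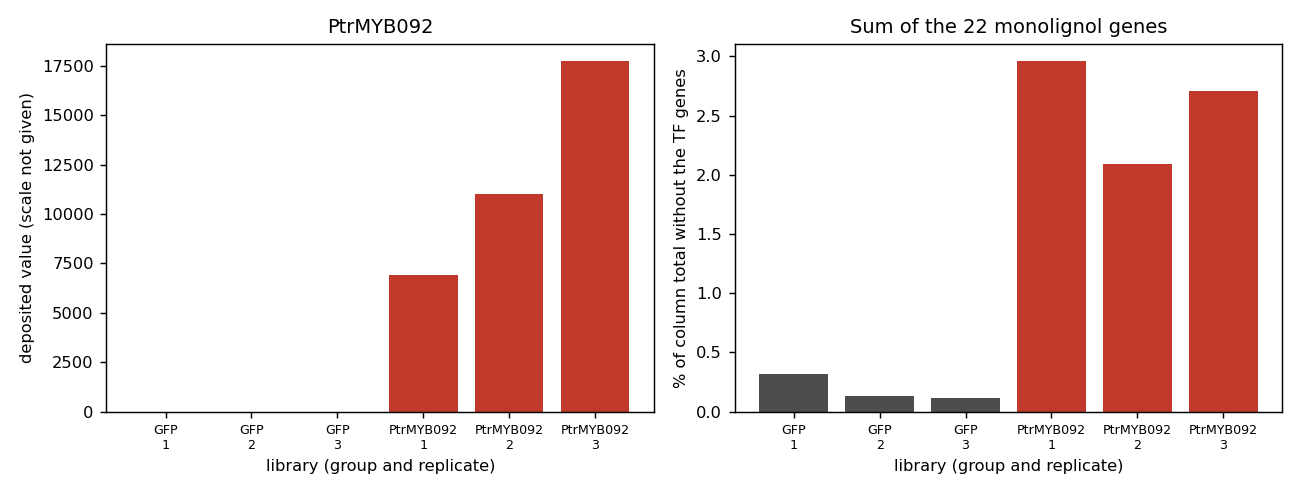
Deposited value of PtrMYB092 (left, scale not given) and summed share of the 22 monolignol genes in percent of the column total without the 2 TF genes (right), 1 bar for each library of GFP (grey) and PtrMYB092 (red). PtrMYB092 was at 4 or 5 in the GFP libraries and at 6922 to 17727 in its own, and the monolignol share was at most 0.314% with GFP and at least 2.09% with PtrMYB092.

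The values are whole numbers labelled as raw counts, with column totals of 428358 to 495579 over the 9 libraries. They scattered less than reads can: among genes whose values summed to 2 over a pair of libraries, 81.9% to 97.5% had 1 in each, where random reads would do so for at most 50%. For this reason the numbers were used as a score whose scale is not given, and how many reads stand behind one is not known. Fold changes below are on the log2(value + 1) scale, which understates the change of low genes. The 3 libraries per construct are biological replicates by the methods of the study. The labels do not tell whether separate trees were used. Libraries with equal replicate numbers deviated together, and the number was a block in the test. A p-value with the block covers only the library spread left after differences between replicate numbers are taken out. What is left may be technical. In pooled protoplasts, fewer cells of a kind and less RNA per cell cannot be told apart.

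Nearly every measured gene of the monolignol pathway was higher with PtrMYB092 than with GFP. Of the 22 listed genes, 20 had values high enough to be tested; 19 were higher, 0 were lower and 1 was not called. The median log2 fold change of the 20 tested genes was 4.09, against -0.025 over all 7594 genes tested. Called higher means a Benjamini-Hochberg adjusted p under 0.05 (limma) and a fold change over 2, which 6.03% of all tested genes passed. Of the 20 genes, 16 were over 4-fold and 12 over 10-fold, against 78 genes (1.03%) over 10-fold among all those tested. The study chose part of this list on these same libraries, so its direction is not independent evidence. In the 19 higher genes every PtrMYB092 library lay above every GFP library. Such a gap upwards was found for 14.6% of all tested genes and for 91.5% of all genes called higher, so it mostly comes with the call. Summed over the 22 genes, the control values were 1456, 576 and 537, and those with PtrMYB092 were 12808, 8719 and 11664. Without the replicate block, 18 of the 20 were called.

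**Figure D2:**
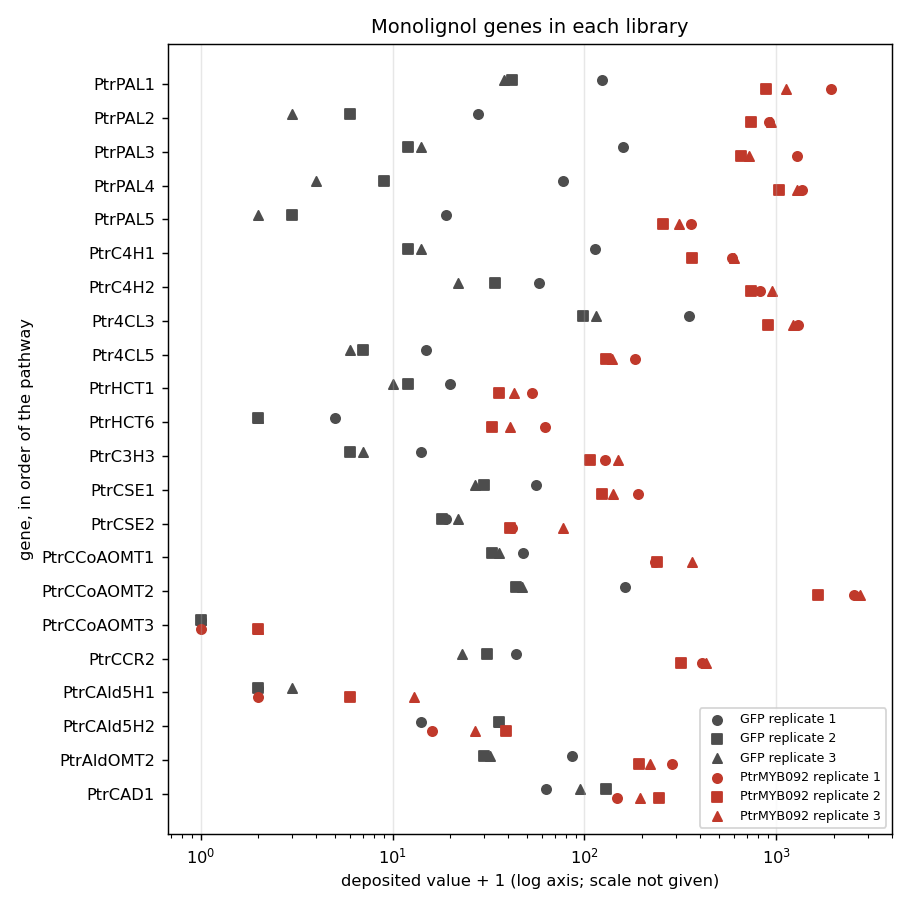
Deposited value + 1 (log axis, scale not given) of the 22 monolignol genes in the order of the pathway, 1 point for each library of GFP (grey) and PtrMYB092 (red), with the symbol for the replicate number. The red points lie above all grey points of the same gene in 19 genes, and for PtrCCoAOMT3, PtrCAld5H1 and PtrCAld5H2 the groups meet.

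The first enzyme, phenylalanine ammonia-lyase (PAL), makes cinnamic acid from phenylalanine and leads carbon into the pathway. All 5 PAL genes were higher, with log2 fold changes from 4.59 to 6.89. PtrPAL2 (Potri.008G038200) went from 27, 5 and 2 with GFP to 913, 741 and 933 with PtrMYB092. Its increase of 6.89 on the log2 scale (SE 0.47, adjusted p = 1.38e-05, limma) had a 95% interval of 5.83 to 7.95. PtrPAL4 (Potri.010G224100) went from 76, 8 and 3 to 1363, 1033 and 1281, an increase of 6.59 (SE 0.61, interval 5.21 to 7.97), so the order of these genes is not settled. PtrPAL5 (Potri.010G224200) had 18, 2 and 1 under GFP and 359, 255 and 310 under PtrMYB092 (log2 fold change 6.10, SE 0.44). PtrPAL1 (Potri.006G126800) rose from 122, 41 and 37 to 1919, 883 and 1119, by 4.59 (SE 0.24, adjusted p = 4.52e-06). PtrPAL3 (Potri.016G091100) rose from 158, 11 and 13 to 1277, 654 and 716, by 4.98 (SE 0.45). In the GFP group replicate 1 stood above the other libraries for each PAL gene, and the PtrMYB092 libraries did not overlap with it. Single libraries moved the size of these increases, and all 5 stayed called without any 1 of the 6 libraries. Without GFP replicate 1 the log2 fold change was 7.54 for PtrPAL4, 7.41 for PtrPAL2, 6.72 for PtrPAL5 and 5.57 for PtrPAL3, and without GFP replicate 3 it was 5.71 for PtrPAL4. Without PtrMYB092 replicate 1 it was 7.64 for PtrPAL2, 7.32 for PtrPAL4, 6.73 for PtrPAL5 and 5.72 for PtrPAL3, and without PtrMYB092 replicate 3 it was 6.27 for PtrPAL2. Adding 5 instead of 1 before the logarithm gave 6.13 for PtrPAL2 and 5.03 for PtrPAL5.

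How far the PAL paralogs can be told apart is uncertain, because the treatment of reads shared between paralogs is not given. The RT-qPCR primers of the study show how alike they are over the short stretches chosen as primer sites. Whole transcripts were not compared. The forward primers of PtrPAL1 and PtrPAL3 share all but 1 of 24 aligned bases, and those of PtrPAL4 and PtrPAL5 all but 2 of 25. The differing bases are in capitals. The reverse primers of PtrPAL1 and PtrPAL3, not printed, share all 25 aligned bases, and PtrPAL4 and PtrPAL5 share the same reverse primer.
PtrPAL1 forward: ccatccaggtcaaattgaggctgcT
PtrPAL3 forward: catccaggtcaaattgaggctgcA
PtrPAL4 forward: gagatgctggaagctatcaccaaAT
PtrPAL5 forward: gagatgctggaagctatcaccaaGC
PtrPAL4 and PtrPAL5 reverse: ggctctccattgggtccaact
The values of such a pair are therefore given one by one but cannot be read as fully separate. PtrCCoAOMT1 and PtrCCoAOMT2 are paralogs as well. Their sequences were not compared, and how reads shared between them were treated is not given either.

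Cinnamate 4-hydroxylase (C4H), a cytochrome P450, adds the first hydroxyl group to the ring. PtrC4H1 (Potri.013G157900) was at 113, 11 and 13 with GFP and at 585, 363 and 599 with PtrMYB092, a log2 fold change of 4.40 (SE 0.48, adjusted p = 0.00024 from limma). PtrC4H2 (Potri.019G130700) went from 57, 33 and 21 to 822, 738 and 950, with a log2 fold change of 4.74 and an SE of 0.32. Both genes were clear of overlap, PtrC4H2 had the narrower control values, and the log2 fold change of PtrC4H1 was 5.20 without GFP replicate 1. 4-coumarate:CoA ligase (4CL) then forms the CoA thioester. Ptr4CL3 (Potri.001G036900) was at 349, 97 and 114 with GFP and reached 1293, 904 and 1216, an increase of 3.01 on the log2 scale (SE 0.26). Ptr4CL5 (Potri.003G188500) started from 14, 6 and 5 and reached 182, 128 and 138, an increase of 4.27 (SE 0.18, adjusted p = 2.42e-06, limma), or 3.68 with 5 added before the logarithm.

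The shikimate ester steps carry the second hydroxylation of the ring. Hydroxycinnamoyl-CoA:shikimate hydroxycinnamoyl transferase (HCT) makes the ester. PtrHCT1 (Potri.003G183900) went from 19, 11 and 9 to 52, 35 and 42, a log2 fold change of 1.86 with a 95% interval of 1.51 to 2.21. PtrHCT6 (Potri.001G042900) went from 4, 1 and 1 to 61, 32 and 40, a log2 fold change of 4.11 with an interval of 3.51 to 4.71. PtrHCT6 rests on control values near 0, and with 5 added before the logarithm its log2 fold change was 2.84 and that of PtrHCT1 1.56. The difference between the paralogs was not tested. PtrC3H3 (Potri.006G033300), the hydroxylase of the ester, rose from 13, 5 and 6 to 127, 106 and 149, by 4.07 on the log2 scale (SE 0.22), or 3.48 with 5 added. Caffeoyl shikimate esterase (CSE) frees caffeic acid from the ester. PtrCSE1 (Potri.003G059200) rose from 55, 29 and 26 to 190, 122 and 139 (log2 fold change 2.23, SE 0.15). PtrCSE2 (Potri.001G175000) rose from 18, 17 and 21 to 41, 40 and 76 (log2 fold change 1.55, SE 0.19).

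Caffeoyl-CoA O-methyltransferase (CCoAOMT) places the methyl group on the ring that guaiacyl lignin carries. PtrCCoAOMT2 (Potri.001G304800) went from 162, 43 and 46 with GFP to 2536, 1648 and 2711, an increase of 5.19 on the log2 scale (SE 0.30, adjusted p = 6.79e-06, limma). PtrCCoAOMT1 (Potri.009G099800) was at 47, 32 and 35 with GFP and at 233, 239 and 364 with PtrMYB092, an increase of 3.00 (SE 0.20). PtrCCoAOMT3 had 0 in each GFP library and 0, 1 and 1 with PtrMYB092, too low to test. Cinnamoyl-CoA reductase (CCR) turns the thioester into an aldehyde. PtrCCR2 (Potri.003G181400) rose from 43, 30 and 22 to 407, 318 and 430, by 3.77 on the log2 scale (SE 0.19, adjusted p = 4.52e-06, limma).

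The late steps held the smallest differences among the tested genes of the list, those of PtrCAld5H2 and PtrCAD1. Coniferaldehyde 5-hydroxylase (CAld5H) opens the branch to syringyl lignin. PtrCAld5H2 (Potri.007G016400) was at 13, 35 and 35 with GFP and at 15, 38 and 26 with PtrMYB092. The groups overlapped, and the log2 fold change of 0.13 had a 95% interval of -0.37 to 0.63 (adjusted p = 0.703, limma). Its log2 fold change was -0.14 without GFP replicate 1. PtrCAld5H1 was at 1, 1 and 2 with GFP and at 1, 5 and 12 with PtrMYB092, below the level tested. AldOMT methylates the product of CAld5H. PtrAldOMT2 (Potri.012G006400) went from 85, 29 and 31 to 285, 191 and 219, with a log2 fold change of 2.57 (SE 0.23). Cinnamyl alcohol dehydrogenase (CAD) makes the alcohols. PtrCAD1 (Potri.009G095800) was at 62, 129 and 94 with GFP and at 147, 245 and 193 with PtrMYB092, with a log2 fold change of 1.23 (SE 0.12, adjusted p = 0.000146, limma). Without the replicate block PtrCAD1 was not called (adjusted p = 0.0664, SE 0.33), and over all settings tried its adjusted p ran from 6.21e-05 to 0.0856.

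The change was also read within each pair of libraries of equal replicate number. All 3 PtrMYB092-minus-GFP differences were above 0 for 19 of the 20 tested monolignol genes; PtrCAld5H2 had differences of 0.35, 0.23 and -0.19 on the log2 scale. The median difference over the 20 genes was 3.27 in the pair with number 1, 4.16 in number 2 and 4.55 in number 3. The difference was smallest in the pair with number 1 for 17 of the 20 genes and largest in the pair with number 3 for 18, a share of 90% against 40.1% of all tested genes. Beside this stand the control values: GFP replicate 1 was the highest GFP library for 17 of the 20 genes, against 42.4% of all tested genes, and PtrMYB092 replicate 1 was the highest of its group for 10. After 1 was added, the scaled values of the GFP libraries differed by 1.20 to 19.7 times between highest and lowest, with a median of 2.70. In the same measure those of the PtrMYB092 libraries differed by 1.33 to 2.34 times, with a median of 1.59. The added 1 narrows this ratio for genes with low values. By this ratio the spread was wider with GFP for 18 of the 20 genes. PtrPAL4 had the widest control spread, and PtrCSE2 and PtrCCoAOMT1 were the genes with the wider spread under PtrMYB092. Over all tested genes another measure was taken, the standard deviation of log2(value + 1) of scaled values. By that measure 49.4% were wider with GFP, so the shares cannot be compared directly.

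**Figure D3:**
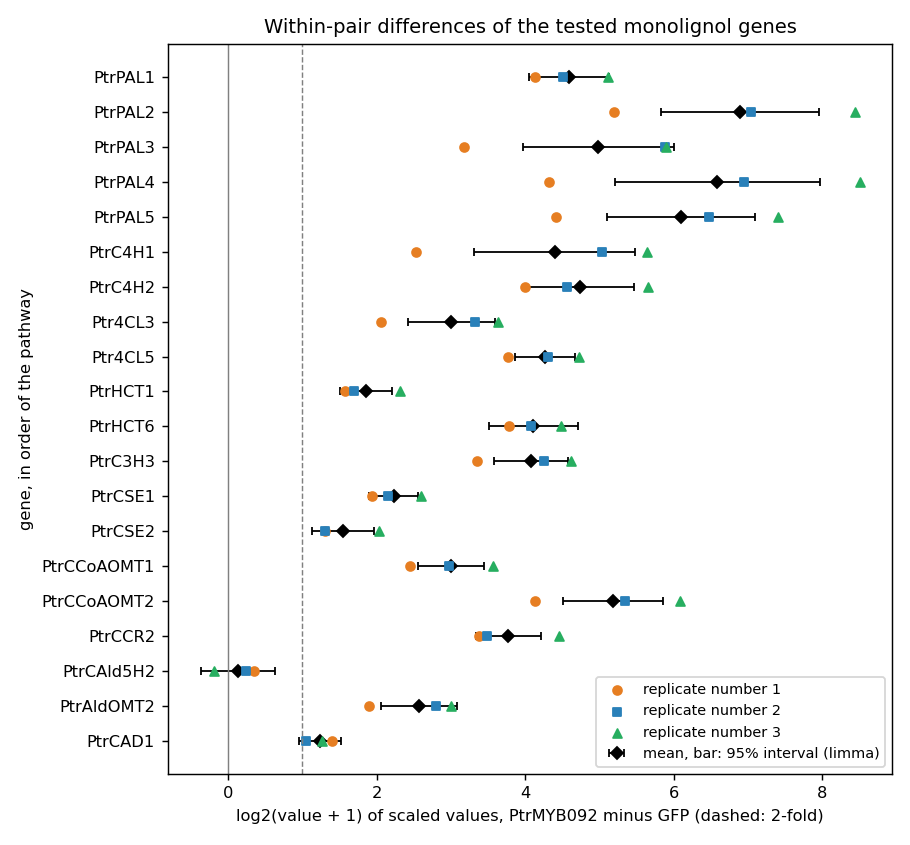
Difference of log2(value + 1) of scaled values, PtrMYB092 minus GFP, for the 20 tested monolignol genes: coloured symbols give the 3 replicate numbers, diamonds the mean and bars its 95% interval from limma. The median of the 20 genes was 3.27, 4.16 and 4.55 in the pairs with numbers 1, 2 and 3, and only the interval of PtrCAld5H2 spans 0.

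Genes of other wall polymers had values too low to test. The secondary wall cellulose synthase genes PtrCesA4, PtrCesA7, PtrCesA8, PtrCesA17 and PtrCesA18, which normally mark xylem making secondary walls, were at 0 to 2 in every library of both groups, so the labelled tissue could not be checked by them. The hemicellulose genes PtrCslA2 and PtrIRX10-1 were at 0 or 1. PtrIRX10-1 had 0 in every GFP library and 1 in every PtrMYB092 library, and none of these 7 genes could be tested. PtrActin, the study's reference for promoter binding rather than for transcripts, was at 97, 100 and 98 with GFP and at 91, 104 and 86 with PtrMYB092. Its log2 fold change was 0.10 (95% interval -0.17 to 0.37), and it turned to -0.030 under a scaling that used every gene above 0.

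The gene of the other TF studied, PtrHSFB3-1, a member of the heat stress TF family, was higher with PtrMYB092. It had values of 67, 53 and 61 in the controls against 119, 105 and 165, without overlap of the groups. It was tested in a fit of the 6 libraries alone, in which it carried no plasmid copy, and there its log2 fold change was 1.21 (SE 0.14, adjusted p = 9.20e-05, limma over 6902 genes).

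Over all genes, 458 of 7594 were higher (6.03%) and 535 were lower (7.05%) with PtrMYB092 than with GFP. Lower means an adjusted p under 0.05 and a fold change under 0.8, a threshold nearer to no change than the 2-fold asked of higher genes. Without the replicate block 342 genes were higher (4.50%) and 26 lower (0.342%), all of them among those called with it, so that the lower genes rest mostly on the pairing. When the scaling used every gene above 0, the median change of all tested genes moved from -0.025 to -0.15 and the calls to 398 higher and 987 lower, which put higher genes at 28.7% of the calls in place of 46.1%. With column totals they were 37.5% of the calls, and with a fit of the 6 libraries 31.8%. They were 92.9% of the calls without the block, 72.4% at an adjusted p under 0.01, 73.8% with no filter and 83.9% when lower genes had to be under 0.5-fold.

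The higher genes included large changes. Of the 458, 159 were over 4-fold, 78 over 10-fold and 19 over 32-fold, with a median log2 fold change of 1.59 and a range of 1.01 to 7.94. The lower genes had a median of -0.66 and a range of -2.60 to -0.38, with 88 of the 535 under 0.5-fold and 1 under 0.25-fold. For 419 higher genes (91.5%) the groups did not overlap, and for 230 lower genes (43%), against 14.6% and 7.23% of all tested genes in the same directions. The other 305 lower genes overlapped between the groups. All 535 lower genes were called with the block, and 26 of them were also called without it. The 458 higher genes held 2.98%, 2.39% and 2.29% of the GFP column totals and 12.3%, 9.57% and 12.1% of the PtrMYB092 totals, TF genes left out. The 535 lower genes went from 11.9%, 9.67% and 10.7% to 6.54%, 6.03% and 5.50%.

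**Figure D4:**
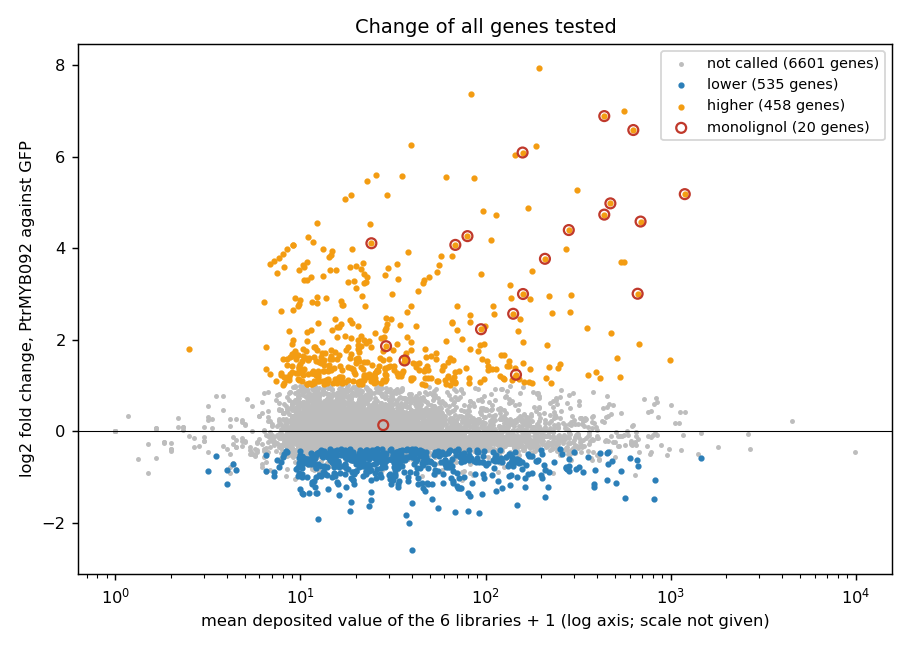
Log2 fold change of PtrMYB092 against GFP (limma) over the mean deposited value of the 6 libraries + 1 (log axis, scale not given) for 7594 tested genes: 458 higher in orange, 535 lower in blue, the others in grey, and the 20 tested monolignol genes ringed. Increases reached 7.94 and decreases -2.60 on the log2 scale.

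The control values of the called genes are given as a description, since the filter asks for a value of 10 in 3 libraries and a gene low in the GFP libraries entered only if it was high with a TF. No division by gene length was made here, and whether the deposited values already hold one is not given. The median scaled GFP mean was 8.54 for the higher genes, 34.0 for the lower genes and 18.7 for all genes tested. Of the higher genes, 180 (39.3%) stayed below 10 in all 3 GFP libraries and 174 (38%) were at 10 or more in all of them, against 5.12% and 76.8% of all genes tested. Of the lower genes, 478 (89.3%) were at 10 or more in all 3. Over the whole table, 16848 genes had 0 in each GFP library, and 16 of these had 10 or more in each PtrMYB092 library. Of the 16230 genes with 0 in each PtrMYB092 library, 0 had 10 or more in each GFP library.

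Among the 12 largest increases the 3 genes with a name were PtrPAL2, PtrPAL4 and PtrPAL5, and another 3 had no GFP value above 0. Potri.008G073700, which no table used here names, came first at the 1 added before the logarithm. It was at 1, 0 and 1 in the controls against 353, 293 and 507 (log2 fold change 7.94, SE 0.23, adjusted p = 2.29e-07, limma). With 5 added it was 6.09, below PtrPAL2 at 6.13. Potri.010G085200 had 0 in each GFP library and reached 161, 140 and 195, so its fitted log2 fold change, 7.37 with 1 added and 5.08 with 5 added, depends on the number added. Potri.008G073700 and Potri.010G085200 passed the filter only through the PtrMYB092 libraries, and neither could be tested with any of these left out. They were tested because they are high in that group, so their place and the adjusted p are no independent support. None of the 12 largest decreases had a name. Potri.003G080700 fell from 107, 32 and 70 to 11, 5 and 10, with no overlap, by 2.60 on the log2 scale (SE 0.17, adjusted p = 1.22e-05, limma). Potri.002G132500 came next, with 161, 13 and 23 in the controls against 19, 5 and 4. Its groups overlapped, since GFP replicate 2 lay below PtrMYB092 replicate 1, and its decrease of 2.00 (SE 0.31) was called with the block (adjusted p = 0.00192, limma) but not without it (adjusted p = 0.469, range over the settings tried 9.39e-05 to 0.469).

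The pairs also differed over the called genes. The median log2 difference of the higher genes was 1.61, 1.46 and 1.84 in the pairs with numbers 1, 2 and 3, and that of the lower genes -0.64, -0.52 and -0.78. The largest difference fell in the pair with number 3 for 300 of the 458 higher genes (65.5%), against 40.1% of all tested genes. The lowest fell there for 296 of the 535 lower genes (55.3%), for which no share of all tested genes was taken. Over all tested genes the quartiles of the difference were -0.28 and 0.26 in number 1, -0.17 and 0.22 in number 2, and -0.32 and 0.37 in number 3. Differences were thus widest in number 3 beyond the called genes too. PtrMYB092 replicate 3 also had the highest PtrMYB092 value, and whether this is linked to the differences in its pair was not tested. Leaving out that library gave 295 higher genes. The lower genes numbered 325, 238 and 166 without GFP replicates 1, 2 and 3, and 321, 230 and 254 without PtrMYB092 replicates 1, 2 and 3. The number of monolignol genes called higher was 19 in each of these 6 fits. With both PtrMYB092 libraries of conflicting description left out, PtrPAL2 was at 5.41 and PtrPAL3 at 3.50 on the log2 scale. PtrHCT6 did not pass the filter in that fit and was not tested.

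Called genes had an adjacent gene called in the same direction in a larger share than other tested genes, though most had none. Adjacent refers to the gene numbering, which follows position on a chromosome. Of the 458 higher genes, 51 (11.1%) had another higher gene at the adjacent ID, as PtrPAL4 and PtrPAL5 do, against 154 of the 7136 other tested genes (2.16%). Of the 535 lower genes, 68 (12.7%) had a lower neighbour, against 183 of 7059 (2.59%). Adjacent genes can be tandem copies that share reads, and how many of these are was not tested.

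Of the 7594 genes tested, 6601 were not called. For 6285 genes (82.8%) the 95% interval of the change lay within 2-fold in both directions, and 587 had an adjusted p under 0.05 with a change between the thresholds. The SE of the log2 fold change had a median of 0.15 with the block and 0.23 without it.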

How the data were processed

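The 9 protoplast RNA-seq libraries (TruSeq kit) were mapped by the authors with Bowtie 2 version 2.1.0 to the P. trichocarpa genome v3.0, whereas TopHat stands in the submitters' processing notes; for the counting step no tool or strand setting is given in the sources used here. The authors deposited whole numbers for 41335 genes, labelled raw counts, which were used as a score because their low values scatter less than reads (36 pairs of libraries). Depth is therefore unknown, and no counting interval is given.

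Both TF genes were removed, values were scaled by TMM (unweighted, trimmed by 30% of ratios and 5% of levels; factors 0.80 to 1.13) over the genes that pass the filter, and log2(value + 1) was tested with limma 3.58.1 in R 4.3.3. All 9 libraries entered, with a mean per construct, a block for the replicate number, which left 4 residual degrees of freedom, and mean-dependent variances. The filter asked for at least 10, at the median total of 454442, in 3 libraries, and 7594 of the 27542 genes above 0 passed. The use of the filtered genes for scaling was chosen after seeing the data. Thresholds are those of the study. The fit was tested on simulated data.

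The pairing comes from the replicate numbers and the data: deviations from group means correlated at 0.72 to 0.86 in the 3 equal-number pairs of GFP and PtrMYB092 and at -0.65 to 0.14 in the 6 others. What a number stands for is not stated.

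Members and lists were chosen with earlier results of these data known. Named are the genes with a name in the study's tables (2 TFs, 22 monolignol, 5 CesA and 2 hemicellulose genes, PtrActin) and, by rule, the 12 largest increases and decreases with the same sign in all 3 pairs, of which 2 unnamed IDs each are printed. The reference table held 0 of the IDs, so lists by product description and coordinates are not given. Primers come from the study's primer table. Alternatives were other scalings, filters, pseudocounts and thresholds, other sample sets, no block and each library left out.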

Additional observations from a re-analysis of the deposited data

How the results depend on the processing

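The monolignol count was 18 or 19 under all 23 alternatives, and 19 each time 1 library was left out. The higher genes, 458 as reported, numbered 292 with a filter of 20, 1180 with no filter, 233 with PtrMYB092 replicates 2 and 3 left out and 295 to 474 with 1 library left out. The lower genes, 535 as reported, numbered 26 with no replicate block, 22 with 6 libraries and no block, 900 with 6 libraries and the block, 167 at an adjusted p under 0.01, 88 at under 0.5-fold, 112 with PtrMYB092 replicates 2 and 3 left out, 987 with TMM over every gene above 0 and 166 to 325 with 1 library left out. The other alternatives stayed within 1.5 times of both counts. TMM over every gene, replicate number 1 left out of all groups (337 higher, 524 lower) and 6 libraries without the block were added after seeing the data. The test at 0.01, the 0.5-fold threshold and the filters change the calls by construction; for the others the cause was not tested.

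For the 25 named genes tested, 555 of 562 alternative values kept direction and side of the threshold. A gene that did not pass the filter under an alternative gave no value there and is not among the 562. Potri.008G073700 and Potri.010G085200 had 18 values each, PtrHCT6 had 21 and Potri.002G132500 had 22, fewer than the other named genes. Potri.008G073700 and Potri.010G085200 had no value with any PtrMYB092 library left out, so their increases were not checked in those fits. PtrCAld5H2 turned to -0.14 without GFP replicate 1 (range with 1 library left out -0.14 to 0.31) and to -0.032 with PtrMYB092 replicates 2 and 3 left out, and PtrActin to -0.030 with TMM over every gene. PtrCAD1 and Potri.002G132500 were not called in either fit without the block; the block changed the call of no other named gene. The tests for read counts listed as alternatives were not run, since the values are no counts. Depth is unknown, so genes at values of 0 to 5 can be neither tested nor called absent. With PtrMYB092 replicates 2 and 3 left out, the lone PtrMYB092 library is assumed to vary like those of the other groups.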
